A study of Mus musculus with 12 samples.

Results

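Cytosolic ribosomal proteins build the ribosome of the cytoplasm together with ribosomal RNA: the small subunit reads the messenger RNA and the large subunit joins amino acids. In most tissues their genes are among the most strongly expressed, their messages carry a pyrimidine-rich tract at the start that couples translation to growth signals, and their proteins are made in near-equal numbers. Many processed pseudogenes, which are copies of their messenger RNAs put back into the genome, lie elsewhere in the mouse genome.

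The members were every row of the count table whose symbol starts with Rpl or Rps followed by a digit, plus Rplp0, Rplp1, Rplp2 and Rpsa. Symbols with -ps, which mark named pseudogenes (310 rows), and the 10 Rps6k kinase rows were left out, as were 8 other rows whose symbols begin alike, such as Rps27rt. This gave 90 of 77175 rows: 43 large-subunit proteins, 31 small-subunit proteins, the 3 proteins of the ribosomal stalk and 13 paralogs or retrocopies, such as Rpl3l and Rps27l. The first 77 are called core members here. Of the 90, 84 had enough counts to be tested in each comparison. The 6 others, Rpl10l, Rpl32l, Rpl6l, Rps12l1, Rps3a2 and Rps3a3, held 20 counts or fewer over all 12 libraries. In 82 members at least 1 library reached 5 CPM, a unit that scales each count by its library total.

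Bulk messenger RNA of 4 groups of 3 mouse libraries was sequenced. All came from tumors of melanoma cells that carry the calcium indicator GCaMP6s from an EF1A lentiviral vector, grown in NOD-SCID hosts, which lack mature T and B cells but keep other host cells. The OVA cells carry ovalbumin, a model antigen, from a further EF1A lentiviral vector, and the B16-F10 cells do not. Every tumor-bearing host was given CD8+ T cells of C57BL/6J-OT-I mice, whose receptor recognises an ovalbumin peptide, after activation with beads against CD3 and CD28, and tumors were taken 2 days later and digested with enzymes. The groups are T cells of OVA tumors, T cells of B16-F10 tumors (both picked with CD8 beads), melanoma cells of OVA tumors and melanoma cells of B16-F10 tumors (both sorted by FACS on GCaMP6s). Whether the libraries of a group stand for separate animals, and whether animals were pooled, is not given in the sources used here. The p-values therefore cover no more than the spread among these libraries, part or all of which may be technical. Library totals ran from 15494683 to 33263730 counts, of which 457843 to 924901 fell on the members.

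Markers of other cell types differed between the groups and move with every comparison. The summed CPM of 10 endothelial markers was 8844 to 8908 in OVA T cells, 9718 to 9826 in B16-F10 T cells, 3812 to 3857 in OVA melanoma cells and 23.0 to 24.3 in B16-F10 melanoma cells. The 8 fibroblast markers summed to 4722 to 4797, 5142 to 5237, 2024 to 2040 and 81.0 to 86.8 CPM in the same order, and the 12 melanoma markers to 107 to 113, 242 to 249, 9993 to 10010 and 23441 to 23528 CPM. The 10 T cell markers summed to 1274 to 1290, 1231 to 1235, 212 to 216 and 4.65 to 5.22 CPM, and in B16-F10 melanoma cells Cd2, Cd3e, Trac and Trbc2 were at 0. The T cell libraries therefore held more endothelial than T cell marker counts, and the OVA melanoma libraries held markers of each of these cell types. This holds in every library of a group, so no comparison can be made without such libraries. In bulk samples fewer cells of a type and less RNA per cell cannot be told apart. The 10 macrophage and monocyte markers summed to 281 to 290, 394 to 403, 2099 to 2108 and 527 to 536 CPM, the 5 neutrophil markers to 71.5 to 74.5, 40.1 to 43.4, 237.6 to 239.8 and 1.03 to 1.55 CPM, and the 5 erythroid markers to 90.3 to 97.8, 130 to 139, 23.3 to 25.6 and 0 to 0.0940 CPM in the same order. Of the 10 macrophage and monocyte markers, 3 had a mean of at least 1 CPM in B16-F10 melanoma cells. All 10 did in each other group. The part of these other cell types in the values that follow was not tested.

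The members together took a smaller share of the counts in OVA tumors than in B16-F10 tumors, in both cell fractions. They took 2.69, 2.66 and 2.70% of the counts in OVA T cells, against 2.96, 2.97 and 3.01% in B16-F10 T cells. They took 2.78, 2.75 and 2.79% in OVA melanoma cells, against 3.28, 3.24 and 3.30% in B16-F10 melanoma cells. In neither fraction did the OVA and B16-F10 libraries overlap. Mitochondrial genes took 2.76 to 2.79% of the counts in OVA T cells and 3.22 to 3.37% in B16-F10 T cells, and 6.42 to 6.57% in OVA melanoma cells and 1.71 to 1.80% in B16-F10 melanoma cells. The ribosomal RNA row Rn18s-rs5 took 0.313 to 0.317% and 1.02 to 1.08% in the T cell groups, and 1.20 to 1.22% and 0.552 to 0.566% in the melanoma groups. Whether RNA quality has a part in the member share was not tested. Within these counts the balance of the subunits differed between the groups. Small-subunit genes took 41.5% of the member counts in OVA T cells, 42.2% in B16-F10 T cells, 42.5% in OVA melanoma cells and 38.0% in B16-F10 melanoma cells. Large-subunit genes took 50.6, 49.9, 48.5 and 53.4% in the same order, and the 3 stalk genes 7.14, 7.11, 7.94 and 7.35%. These shares within the members do not depend on how the libraries are scaled.

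**Figure D1:**
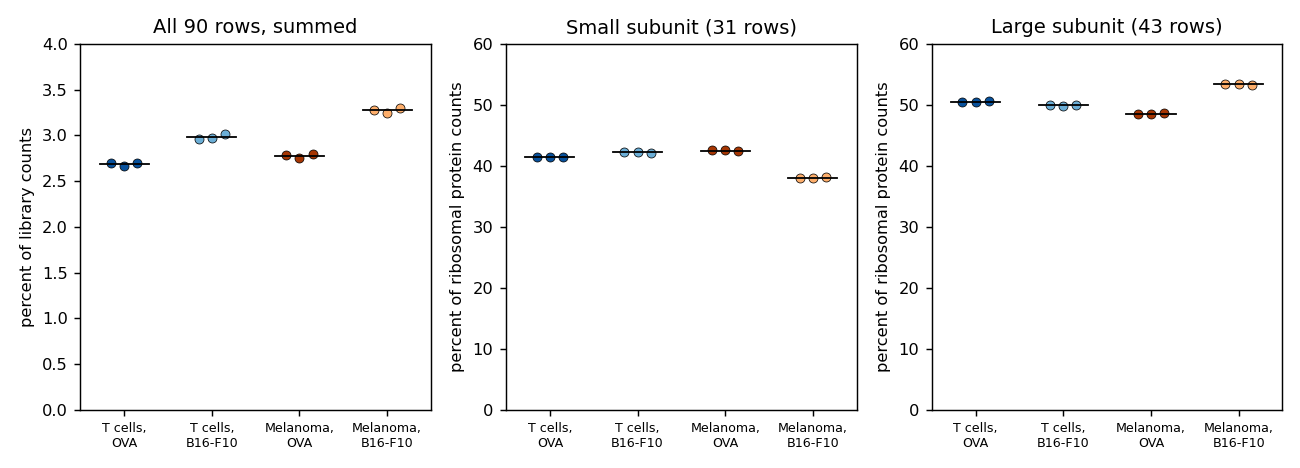
Share of each library's counts on the 90 ribosomal protein rows, and shares of small-subunit and large-subunit rows among those counts, in percent (vertical axes), by group. Points are libraries and lines are group means; the member share is highest in B16-F10 melanoma cells (mean 3.27%), where the small-subunit share is lowest (38.0%).

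Per kilobase of exon, the stalk genes Rplp1 and Rplp0 had the highest means of the core members over all 12 libraries, though in B16-F10 melanoma cells the small-subunit gene Rps15 stood above Rplp0, at 853. Rplp1 reached 867 CPM per kilobase in OVA T cells, 1005 in B16-F10 T cells, 1360 in OVA melanoma cells and 1756 in B16-F10 melanoma cells, and Rplp0 reached 784, 848, 796 and 821. The median core member was at 174 CPM per kilobase over all libraries. The lowest were Rps27 and Rpl5, both at 6.86, Rpl12 at 13.0 and Rps12 at 13.9. Rpl5 binds the smallest ribosomal RNA of the large subunit, and a close copy of it, Gm15500, held 124 to 150 CPM in OVA T cells, 133 to 162 in B16-F10 T cells, 97.7 to 124 in OVA melanoma cells and 143 to 158 in B16-F10 melanoma cells, while the Rpl5 row itself held 20.2 to 39.7 CPM in all 12 libraries. The Gm15500 transcript differs from the Rpl5 coding sequence at 0 of 891 bases. Likewise the row Rps27rt held 121 to 135, 155 to 171, 130 to 134 and 85.9 to 91.3 CPM in the 4 groups, against 2.85 to 12.9 CPM for Rps27 over the 12 libraries. The levels of such members are uncertain, since reads can be split between near-identical rows and the setting for reads that map to several places is not given in the sources used here.

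Counts on close copies differed between the groups. Of 43415 rows whose transcripts could be compared, 295 shared at least 50% of their 31-base words with a member, and 33 of these, copies of 30 members, reached 5 CPM in a library. In 14 of the 33, copies of 12 members, every B16-F10 melanoma library was below 1 CPM, and in all 14 the OVA melanoma mean lay between those of the B16-F10 melanoma cells and of both T cell groups. That is 42.4% of the copy rows, beside 11.5% of all 12743 rows that reach 5 CPM and 30.5% of 131 other processed pseudogenes. The copy search and the 1 CPM limit were chosen after the values were seen. That limit largely fixes the B16-F10 melanoma cells as the low end of the order of groups. For other rows below 1 CPM there, the order was not counted. Compared without gaps, transcripts of the 14 differ from the member's coding sequence by 1 to 12 bases, except Rps2-ps6 at 66 bases. Of these 66, 42 fell within 75 bases, and an inserted or lost base would raise such a count. The 18 copy rows that fell on neither side differ by 0 or 1. The remaining row ran the other way: Gm10163, a copy of Rpl21, had 2.96, 3.53 and 7.12 CPM in B16-F10 melanoma cells and was at 0 in the 9 other libraries.

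The sequences of 4 members and their copies are shown because each pair of rows differs by only a few bases. They are 75 coding bases each from GENCODE M21 transcripts (mouse build GRCm38), 5′ to 3′, and the capitals mark the bases that differ. Rpl3 (chromosome 15) and Rpl3-ps1 (chromosome X) differ at 2 of 1209 coding bases, Rps7 (chromosome 12) and Rps7-ps3 (chromosome X) at 3 of 582, Rpl29 (chromosome 9) and Gm8210 (chromosome 1) at 3 of 480, and Rpl21 (chromosome 5) and Gm13370 (chromosome 2) at 2 of 480.
Rpl3: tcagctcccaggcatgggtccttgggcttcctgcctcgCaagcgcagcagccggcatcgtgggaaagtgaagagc
Rpl3-ps1: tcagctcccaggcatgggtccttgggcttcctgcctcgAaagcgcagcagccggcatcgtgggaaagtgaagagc
Rps7: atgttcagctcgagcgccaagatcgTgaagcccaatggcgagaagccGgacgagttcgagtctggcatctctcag
Rps7-ps3: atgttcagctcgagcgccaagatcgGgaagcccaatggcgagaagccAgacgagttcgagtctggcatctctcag
Rpl29: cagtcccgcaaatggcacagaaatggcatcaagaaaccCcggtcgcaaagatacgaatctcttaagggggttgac
Gm8210: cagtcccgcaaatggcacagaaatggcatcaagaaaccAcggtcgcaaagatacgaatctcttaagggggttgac
Rpl21: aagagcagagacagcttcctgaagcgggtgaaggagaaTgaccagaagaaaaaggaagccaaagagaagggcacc
Gm13370: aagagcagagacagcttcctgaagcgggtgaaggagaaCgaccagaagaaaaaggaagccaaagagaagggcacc

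Rpl3 (ENSMUSG00000060036), which lies beside the catalytic centre of the large subunit, is 1 of the 12 members. The Rpl3 row held 364, 349 and 361 CPM in OVA T cells, 356, 349 and 356 CPM in B16-F10 T cells, 516, 515 and 510 CPM in OVA melanoma cells and 1022, 1045 and 1050 CPM in B16-F10 melanoma cells. The Rpl3-ps1 row held 399, 402 and 393 CPM in OVA T cells, 457, 444 and 467 in B16-F10 T cells, 256, 248 and 248 in OVA melanoma cells and 0.423, 0.775 and 0 in B16-F10 melanoma cells. The Rpl3 row was highest in B16-F10 melanoma cells, where the Rpl3-ps1 row was lowest. Their sum with the other Rpl3 copies was 756 ± 6.39 CPM in OVA T cells, 810 ± 15.8 in B16-F10 T cells, 764 ± 6.94 in OVA melanoma cells and 1040 ± 14.7 in B16-F10 melanoma cells (SD, n = 3 each).

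Copies of other members were likewise highest in the T cell groups and near 0 in B16-F10 melanoma cells. Rps7-ps3, a copy of the small-subunit gene Rps7, held 159 to 166 CPM in OVA T cells, 148 to 169 in B16-F10 T cells, 111 to 121 in OVA melanoma cells and 0 in all 3 B16-F10 melanoma libraries. Gm8210, a copy of Rpl29, held 103 to 110, 116 to 129, 58.3 to 63.1 and 0 to 0.158 CPM in the same order, and Rps18-ps6, a copy of Rps18, held 161 to 163, 197 to 200, 100 to 102 and 0.158 to 0.658 CPM. Rpl28-ps1, whose transcript differs from Rpl28 at 0 of 411 coding bases, held 101 to 132 CPM in all 12 libraries. The reason for the low counts of the 14 rows in B16-F10 melanoma cells was not tested.

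**Figure D2:**
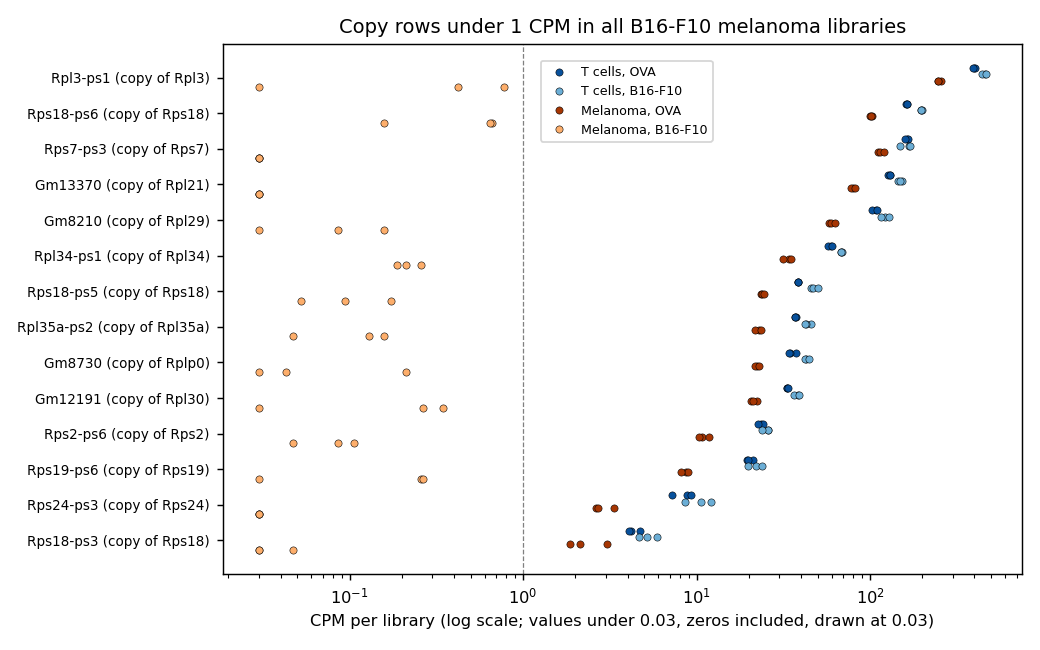
CPM of 14 copy rows in each library by group (log axis, values under 0.03 drawn at 0.03, dashed line at 1 CPM). By the choice of rows, every B16-F10 melanoma library lies below the line, for example 0 CPM for Rps7-ps3. OVA melanoma cells lie between those libraries and both T cell groups.

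Melanoma cells of OVA tumors were compared with melanoma cells of B16-F10 tumors to ask how the melanoma fraction differs where its cells bear the antigen of the transferred T cells. In edgeR's quasi-likelihood test with TMM scaling and Benjamini-Hochberg adjustment over all genes tested, 33 of 84 members were higher and 46 lower in OVA melanoma cells at an adjusted p under 0.05, beside 42% of all 17418 genes higher and 37.4% lower. The median member log2 fold change was -0.11, beside 0.04 over all genes. Small-subunit genes were higher in 17 and lower in 11 of 31 (median 0.12) and large-subunit genes higher in 11 and lower in 30 of 43 (median -0.23), and the small-subunit median turned to -0.05 when libraries were scaled by their totals alone. With the copy rows added to their members, the medians were 0.14 and -0.21. Against a 1.5-fold change (edgeR's glmTreat test), 3 members were higher and 9 lower, beside 27.6 and 12.8% of all genes. The 3 higher ones, Rps4l, Rpl39l and Rpl3l, had 0, 1 and 4 counts in B16-F10 melanoma cells and passed the count filter through OVA melanoma cells. With library totals 11 of the 79 called members changed sign, and scaled to the summed melanoma markers all 84 were higher, as was the median of all genes at 1.10.

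Members of both subunits were among those that rose in OVA melanoma cells. Rps19 (ENSMUSG00000040952), the gene most often mutated in human Diamond-Blackfan anaemia, held 358, 359 and 355 CPM in OVA melanoma cells, against 289, 276 and 280 CPM in B16-F10 melanoma cells. All OVA melanoma libraries lay above all B16-F10 melanoma libraries, with a log2 fold change of 0.51 (SE 0.0174, adjusted p = 6.78e-18), and of 0.55 with its copy rows. Rpl28, of the large subunit, held 298, 283 and 300 CPM, against 238.3, 231 and 234 CPM in B16-F10 melanoma cells (log2 0.50, SE 0.0208). Rps16 had a log2 fold change of 0.44 and Rps3, at the entry of the messenger RNA path, of 0.32. Rps19, Rpl28, Rps16 and Rps3 all lie on chromosome 7, where all 14 core members were higher. Of the 1222 other genes tested on chromosome 7, 64.1% were higher and 13.7% lower. Elsewhere 16 of 63 core members were higher and 42 lower.

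Most members that fell by 1.5-fold have a copy row that was below 1 CPM in B16-F10 melanoma cells. Of the 9, 6 have such a copy: Rpl3, Rps7, Rpl30, Rpl21, Rpl29 and Rpl35a. Their log2 fold changes were -0.85, -0.73, -0.72, -0.68, -0.67 and -0.65, and with the copy rows added they were -0.27, -0.38, -0.55, -0.21, -0.35 and -0.39. Rps18 was lower on its own row (log2 -0.17) and higher with its copies (0.35). The 12 members with such a copy had a median of -0.41 and the 72 others of -0.10. The 12 were chosen for low copy counts in B16-F10 melanoma cells, the reference group here. The count of 6 and these medians are therefore not independent of that choice.

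The 3 others fell without such a copy. Rpl36a (ENSMUSG00000079435), a large-subunit protein at the exit site for transfer RNA, held 50.1, 50.1 and 51.3 CPM in OVA melanoma cells, against 95.1, 99.4 and 106 CPM in B16-F10 melanoma cells (log2 -0.82, SE 0.0353, adjusted p = 7.33e-16). Rps12 (ENSMUSG00000061983), a small-subunit protein known in Drosophila for its part in cell competition, held 21.2, 23.2 and 22.0 CPM, against 41.3, 41.1 and 40.7 CPM in B16-F10 melanoma cells (log2 -0.73, SE 0.0463). Rps27l (ENSMUSG00000036781), a paralog of Rps27 that p53 can induce, held 65.4, 61.7 and 66.9 CPM, against 116, 114 and 113 CPM (log2 -0.65, SE 0.0298, adjusted p = 2.04e-15). In these 3 genes every OVA melanoma library lay below every B16-F10 melanoma library. For Rpl36a, OVA melanoma cells were also below both T cell groups (75.04 to 82.3 CPM in OVA T cells and 84.5 to 89.2 CPM in B16-F10 T cells), and for Rps12 they lay below both as well (23.8 to 25.6 and 23.5 to 25.5 CPM).

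Members known for roles beside the ribosome, and the stalk, moved in both directions. Rplp0 was higher (log2 0.13), as was Rpsa, also known as the laminin receptor (0.12), and both turned to -0.04 and -0.05 with scaling by library totals. Rps6, the substrate of the Rps6 kinases, did not pass the test (log2 0.03, adjusted p = 0.0708). Rpl5 and Rpl11, which can bind the p53 regulator Mdm2 when free of the ribosome, had log2 fold changes of -0.48 (-0.34 with copies) and -0.11. Rpl10, placed late in large-subunit assembly, had 0.19 with overlapping libraries and 0.03 with library totals, where it was not called (adjusted p = 0.507). Its row held 133 to 149 CPM in OVA and 131 to 144 in B16-F10 melanoma cells. The copy row Rpl10-ps3, which differs at 0 of 642 coding bases, held 547 to 561 and 467 to 492 CPM. The level and change of Rpl10 are therefore uncertain. The stalk genes Rplp1 and Rplp2 had log2 fold changes of -0.20 and 0.43.

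**Figure D3:**
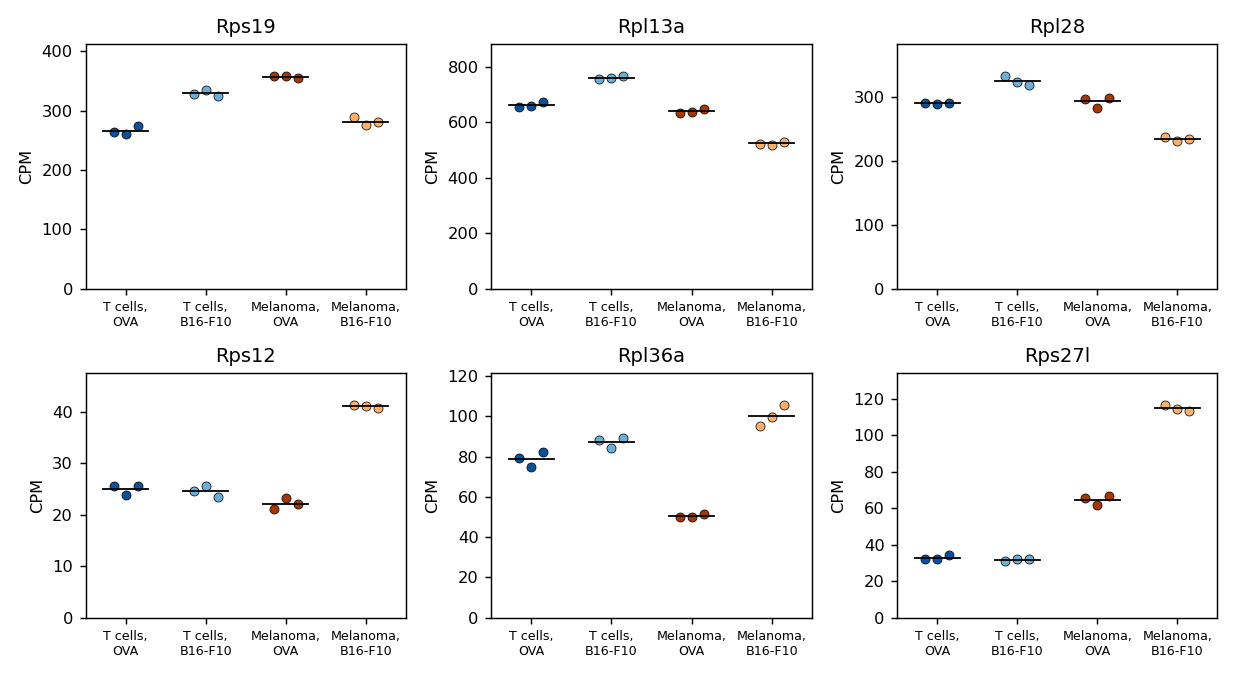
CPM per library of Rps19, Rpl13a, Rpl28, Rps12, Rpl36a and Rps27l in the 4 groups (linear axes; points are libraries, lines are group means). Rps27l lies at 113 to 116 CPM in B16-F10 melanoma cells and at 31.3 to 34.5 CPM in both T cell groups.

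The direction of the members in this comparison differed by chromosome, a pattern noticed after the values were seen. All 14 core members on chromosome 7 (positions of genes by GENCODE M21) were higher in OVA melanoma cells, with a median log2 fold change of 0.44, and the 1222 other genes tested there had a median of 0.42, the highest of 20 chromosomes. Of those other genes 64.1% were called higher and 13.7% lower. With library totals 11 of the 14 members were higher and 1 lower, and with the copy rows added their median was 0.42. The 4 core members on chromosome 15 were all lower (median -0.60, and -0.42 with copies). The 629 other genes there had a median of -0.25, with 54.4% called lower and 32.4% higher. On chromosomes 1, 4, 5, 14, 18 and X the median of the members and that of the other genes had opposite signs. The 3 core members on chromosome 1 were all lower (median -0.31, beside 0.02 for the other genes), and of the 4 on chromosome X 3 were lower and 1 higher (median -0.19, beside 0.09). Of the other genes, 42.4% were lower and 42.9% higher on chromosome 1, and 36.0 and 45.9% on chromosome X. The 63 core members off chromosome 7 were higher in 16 and lower in 42 (median -0.17). Of the small-subunit genes, 9 of 9 on chromosome 7 were higher (median 0.44) and 8 of 22 elsewhere (median -0.04). Of the large-subunit and stalk genes, 5 of 5 there were higher (median 0.43) and 8 of 41 elsewhere (median -0.30).

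Across the 77 core members, Pearson's r between a member's log2 fold change and the median of the other genes of its chromosome was 0.75 (Spearman's rho 0.76). It was 0.67 (rho 0.73) in T cells over melanoma cells of B16-F10 tumors, 0.67 (rho 0.70) in those of OVA tumors, which include no B16-F10 melanoma library, and 0.28 (rho 0.34) in OVA over B16-F10 T cells. The points share libraries and chromosomes and are not replicates. In OVA over B16-F10 melanoma cells, r with gene length was 0.05 and with level per kilobase 0.03. Chromosome 7 took 18.2% of the member counts in OVA T cells, 18.8% in B16-F10 T cells, 18.04% in OVA melanoma cells and 13.1% in B16-F10 melanoma cells, and chromosome 15 took 4.54, 4.50, 5.39 and 7.76%. DNA copy number was not measured here, and the part of the other cell types in this pattern was not tested.

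**Figure D4:**
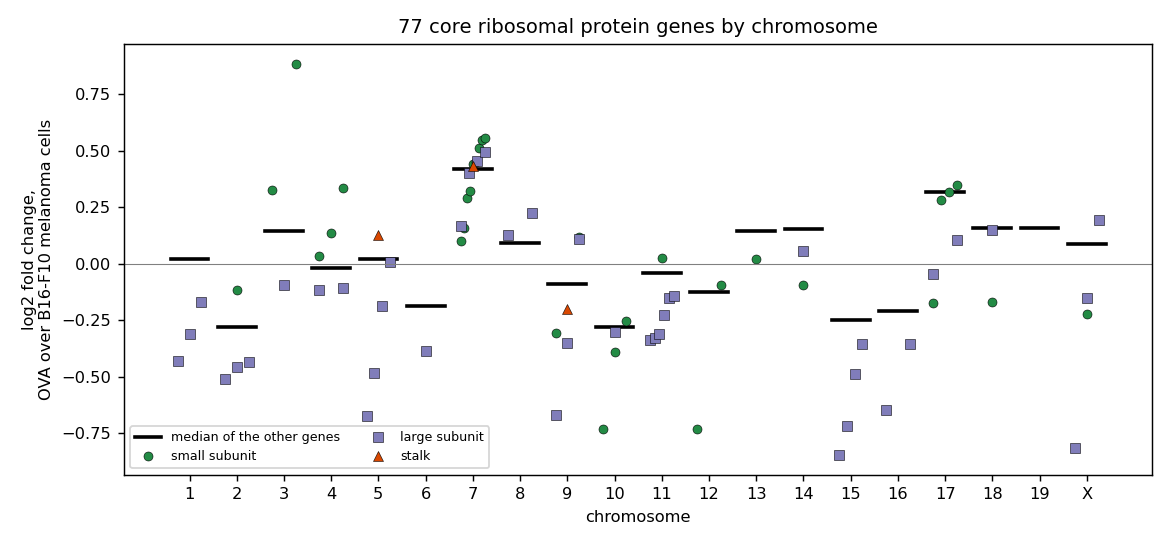
Log2 fold change of 77 core members, OVA over B16-F10 melanoma cells (vertical axis), by chromosome (horizontal axis); black bars are the median of the other genes tested on that chromosome. The 14 members on chromosome 7 all lie above 0, with a median of 0.44 beside that chromosome's bar at 0.42.

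T cells of OVA tumors were compared with T cells of B16-F10 tumors, the fractions with and without the antigen of their receptor in the tumor. Members were lower in OVA T cells by a small amount. Of 84 members 60 were lower and 3 higher in OVA T cells (edgeR, adjusted p under 0.05), beside 22.4% of all 16536 genes lower and 23.7% higher. The median was -0.11, beside -0.01 over all genes. No member passed the test against a 1.5-fold change in either direction, beside 3.96% of all genes higher and 2.44% lower. Small-subunit genes were lower in 27 of 31 and higher in 0, large-subunit genes lower in 29 and higher in 2 of 43, and the 3 stalk genes were all lower. None of the 63 called members changed sign with library totals.

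Among members that reach 5 CPM, the largest falls were in genes of both subunits. Below that level Rpl39l had 1.24, 1.63 and 1.95 CPM in OVA T cells, against 2.49, 2.49 and 2.39 CPM in B16-F10 T cells (log2 -0.56, SE 0.208, adjusted p = 0.0297). Rpl36, a small protein at the surface of the large subunit, held 125, 121 and 127 CPM in OVA T cells, against 152, 150 and 164 CPM in B16-F10 T cells (log2 -0.26, SE 0.0286, adjusted p = 1.55e-08). Rps19 held 264, 261 and 274 CPM, against 329, 335 and 324 CPM (log2 -0.25, SE 0.0198). Rps21 had a log2 fold change of -0.25, and Rps16 and Rpl27 of -0.22. Rpsa held 1105, 1105 and 1102 CPM in OVA T cells, against 1324, 1338 and 1338 CPM in B16-F10 T cells, the change with the smallest SE of these (log2 -0.22, SE 0.0117). In each gene named with its values the groups did not overlap. The 3 members called higher were Rpl7l1, a paralog of Rpl7 (log2 0.17), Rpl3 (0.07) and Rpl7a (0.06), and with library totals the calls of Rpl3 and Rpl7a were lost (adjusted p = 0.434 and 0.973). Rpl3 with its copies was at -0.04.

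Scaled to the summed member counts, 19 members were higher and 23 lower in OVA T cells, beside 34.3 and 14.2% of all genes, and none passed the 1.5-fold test, beside 4.89 and 1.90%. Under the same scaling in melanoma cells, 6 members were 1.5-fold higher and 5 lower in OVA tumors, beside 28.7 and 10.7% of all genes. Among the 6 were again Rps4l, Rpl39l and Rpl3l, which passed the count filter through OVA melanoma cells. The OVA T cell libraries also had fewer endothelial, fibroblast and melanoma marker counts than the B16-F10 T cell libraries, and the part of this in the lower member counts was not tested.

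The 2 OVA effects share no libraries, and the difference between them, T cells minus melanoma cells, was tested over all 12 libraries. It was positive in 36 and negative in 37 of 84 members, beside 27.7 and 41.3% of all 18562 genes, and passed the 1.5-fold test in 6 and 7 members, beside 9.38 and 28.7%. The 7 include Rps4l, Rpl39l and Rpl3l, which had few or no counts in B16-F10 melanoma cells and passed the count filter through other groups. Small-subunit genes were positive in 7 and negative in 20 of 31 (median -0.27), and large-subunit genes positive in 25 and negative in 12 of 43 (median 0.16). Rps19 (log2 difference -0.76, SE 0.0275) was higher in OVA than in B16-F10 melanoma cells and lower in OVA than in B16-F10 T cells. Rpl3 (0.92), Rps12 (0.81), Rps27l (0.76) and Rpl36a (0.73) were lower in OVA than in B16-F10 melanoma cells, while OVA over B16-F10 T cells gave 0.07, 0.09, 0.11 and -0.08. Rpl3 with its copies had a difference of 0.23. Across the 77 core members, r between the OVA effects of melanoma cells and of T cells was -0.26 (rho -0.23).

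T cells were next compared with melanoma cells of the same kind of tumor. In B16-F10 tumors, 52 of 84 members were higher and 29 lower in T cells (edgeR, adjusted p under 0.05), beside 45.4 and 42.3% of all 17099 genes, with a median of 0.24 beside 0.06. Small-subunit genes were higher in 23 and lower in 7 of 31 (median 0.46) and large-subunit genes higher in 23 and lower in 18 of 43 (median 0.12, which turned to -0.16 with library totals). Of the 81 called members 15 changed sign with library totals, where the median of all genes lay at -0.22. Against 1.5-fold, 16 were higher, Rps4l, Rpl39l, Rpl3l and Rps27 among them, and 8 lower, beside 34.4 and 27.9% of all genes. Rps4l, Rpl39l and Rpl3l had few or no counts in B16-F10 melanoma cells and passed the count filter through T cells.

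The higher members were spread over both subunits. Rpl13a, of the large subunit, which in human myeloid cells also joins a complex that silences inflammatory messages, held 755, 759 and 767 CPM in B16-F10 T cells, against 523, 519 and 529 CPM in B16-F10 melanoma cells (log2 0.82, SE 0.0164, adjusted p = 2.59e-26). Rps3 held 763, 759 and 783 CPM, against 567, 580 and 576 CPM (log2 0.70, SE 0.0174). Rpl17 had a log2 fold change of 0.87. No libraries of the 2 groups overlapped in these genes. Rpl13a and Rps3 lie on chromosome 7, where 14 of 14 core members were higher. Of the 1201 other genes tested on chromosome 7, 56.5% were higher and 28.6% lower. Elsewhere 34 of 63 were higher and 26 lower.

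Of the 8 members that were 1.5-fold lower in T cells, 6 have a copy row below 1 CPM in B16-F10 melanoma cells, and with the copies added Rpl3 had a log2 fold change of -0.07 against -1.27 on its own row, Rpl29 of -0.38 against -1.22, Rps7 of -0.31 against -0.85 and Rpl30 of -0.40 against -0.70. Rps18 and Rpl21 turned to higher, at 0.51 against -0.73 and 0.17 against -0.65. Rpl5 and Rpl35a turned as well, at 0.14 against -0.39 and 0.15 against -0.24. The copies were chosen by their counts in B16-F10 melanoma cells, the reference group here too. The 2 of the 8 members without such a copy were Rpl7l1 (log2 -0.67) and Rps27l. Rps27l held 31.3, 32.1 and 32.2 CPM in B16-F10 T cells, against 116, 114 and 113 CPM in B16-F10 melanoma cells (log2 -1.56, SE 0.0354, adjusted p = 5.78e-25).

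**Figure D5:**
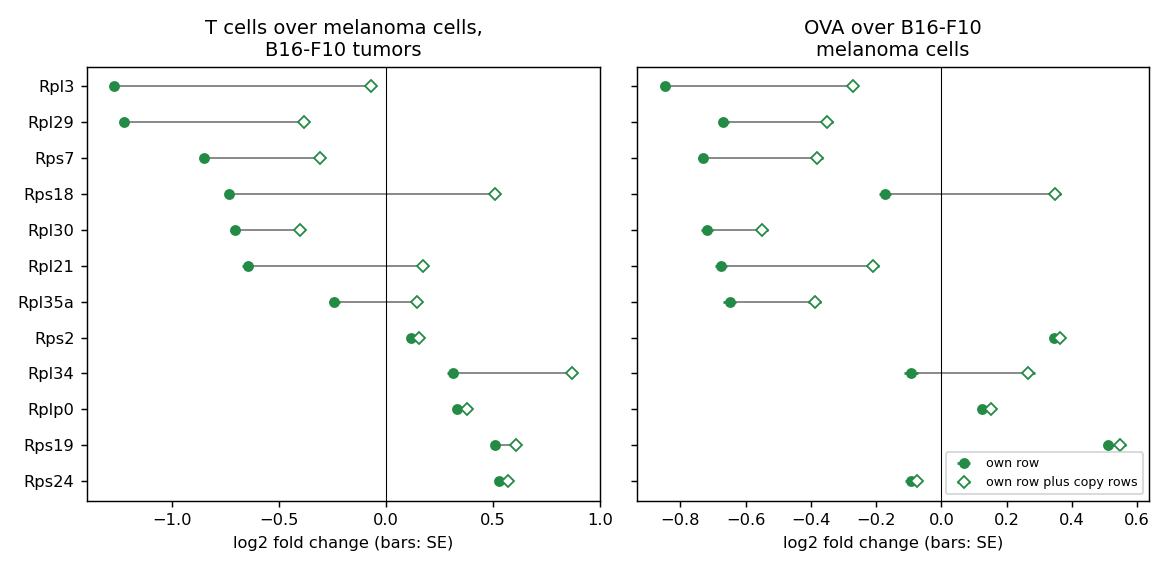
Log2 fold change with SE of 12 members on their own row (filled) and with their copy rows added (open), for B16-F10 T cells over B16-F10 melanoma cells and for OVA over B16-F10 melanoma cells. Rps18 lies at -0.73 on its own row and 0.51 with copies in the first, and at -0.17 and 0.35 in the second.

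In OVA tumors, of 84 members 47 were higher and 25 lower in T cells, beside 38.2 and 41.1% of all 17947 genes, with a median of 0.13 beside -0.03. Against 1.5-fold 3 were higher and 2 lower, beside 19.8 and 21.4% of all genes. Small-subunit genes were higher in 16 and lower in 10 of 31 and large-subunit genes higher in 27 and lower in 11 of 43, and with library totals these were 13 and 14, and 23 and 17. Of the 72 called members 5 changed sign with library totals. The 2 lower ones were Rps27l, at 32.0, 32.3 and 34.5 CPM in OVA T cells, against 65.4, 61.7 and 66.9 CPM in OVA melanoma cells (log2 -0.85, SE 0.0416), and Rps18 (-0.66, and -0.04 with copies). Rpl36a was among the 3 higher ones (log2 0.77, SE 0.0351). Other called members were Rpl22l1, a paralog of Rpl22 (0.55), and Rpl24 (0.54) on the higher side and Rpl36 (-0.55), Rplp1 (-0.52) and Rpl29 (-0.59, and -0.13 with copies) on the lower side.

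Scaled to the summed member counts, 8 members were 1.5-fold higher and 11 lower in T cells of B16-F10 tumors, beside 31.8 and 32.0% of all genes. Among the 8 were again Rps4l, Rpl39l and Rpl3l, which passed the count filter through T cells. In OVA tumors 3 were higher and 4 lower, beside 17.9 and 23.8%. The 2 comparisons of T cells with melanoma cells share no libraries, and r between them was 0.58 (rho 0.47) across the 77 core members. Chromosome 7 core members were higher in 14 of 14 in B16-F10 tumors (median 0.65, other genes 0.42), and higher in 7 and lower in 2 in OVA tumors (median 0.06, other genes -0.05). In OVA tumors 36.8% of the 1280 other genes there were higher and 42.2% lower. In OVA over B16-F10 T cells all 14 members were lower (median -0.15, other genes -0.02), beside 22.7% of the 1189 other genes.

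Some paralogs were near 0 in B16-F10 melanoma cells. Rps4l (ENSMUSG00000063171), a paralog of Rps4x, held 13.5, 13.8 and 13.2 CPM in OVA T cells, 14.2, 12.4 and 12.8 CPM in B16-F10 T cells, 5.23, 6.56 and 5.95 CPM in OVA melanoma cells, and 0 counts in all 3 B16-F10 melanoma libraries. Taking 3 counts over the whole group as the floor, it was at least 122-fold higher in OVA than in B16-F10 melanoma cells and at least 279-fold higher in B16-F10 T cells than in B16-F10 melanoma cells. Rpl39l, known from mouse testis, had 51 counts in OVA melanoma cells and 1 count in B16-F10 melanoma cells, a ratio of 42.1 (95% exact counting interval 7.22 to 1694). Rpl3l, known from striated muscle, stayed at 1.36 CPM or less in all libraries and at 0 to 0.106 CPM in B16-F10 melanoma cells.

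Pairs of paralogs changed their ratio as well. Rpl36al held 82.0% ± 1.35 of the Rpl36a level in OVA T cells, 81.6% ± 2.07 in B16-F10 T cells, 196% ± 4.22 in OVA melanoma cells and 133% ± 9.82 in B16-F10 melanoma cells (SD, n = 3 each). OVA melanoma cells had the highest ratio: against B16-F10 melanoma cells Rpl36a had a log2 fold change of -0.82 there and Rpl36al of -0.25. The row Rpl36a-ps2, which differs from Rpl36a at 0 of 318 coding bases, held means of 36.5, 39.8, 23.9 and 48.9 CPM in the same order of groups. Its counts are left out of these ratios, whose level is therefore uncertain. Rpl22l1 held 35.3, 33.3, 30.2 and 32.1% of the Rpl22 level in the same order, a narrow range, and Rpl7l1 held 8.94, 7.72, 13.9 and 13.8% of the Rpl7 level.

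Over the 82 members that reach 5 CPM, the highest mean was in B16-F10 melanoma cells for 45, in B16-F10 T cells for 32, in OVA melanoma cells for 4 and in OVA T cells for 1. The lowest was in OVA melanoma cells for 32 and in OVA T cells for 31. These ranks use CPM by library totals and were not counted over all rows. With TMM scaling, 52 of 84 members were higher and 29 lower in B16-F10 T cells than in B16-F10 melanoma cells. In 22 of the 82 members (26.8%) every OVA melanoma library lay between all B16-F10 melanoma libraries and all T cell libraries, without overlap. The same held for 58.4% of all 12743 rows that reach 5 CPM.

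Other genes of the ribosome were set beside the members, with no test of a list. In OVA against B16-F10 melanoma cells, where 37.4% of all genes were lower and 42% higher with a median of 0.04, the lists given here had more lower than higher genes. Of 42 ribosome assembly genes, 36 were lower and 2 higher (median -0.48), among them Brix1 (log2 -1.18) and Nop58 (-1.01), while Eif6, which keeps the subunits apart, was at 0.27. Of 78 mitochondrial ribosomal protein genes, which serve the separate ribosome of mitochondria, 53 were lower and 6 higher (median -0.37). Of 14 RNA polymerase I genes, whose enzyme makes ribosomal RNA, 11 were lower and 2 higher. In B16-F10 T cells against B16-F10 melanoma cells, 39 of the 42 assembly genes and 69 of the 78 mitochondrial ones were lower (medians -0.77 and -0.86), beside 42.3% of all genes. There the cytosolic members had a median above that of all genes and these lists one below it.

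In OVA T cells against B16-F10 T cells 15 of the 42 assembly genes, among them Rrp12 (log2 0.59), were higher, 4 lower and 23 not called (median 0.06). Of all genes 23.7% were higher and 22.4% lower (median -0.01), and the difference between the list and the members was not tested. The initiation and growth list had 11 higher and 4 lower of 21, with Myc at 0.61. Of 19 other genes of the terminal oligopyrimidine type, such as elongation factors, 5 were higher and 7 lower.

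RefSeq promoter sequences (build GRCm38.p6, 250 bases before to 50 bases after the start) matched 65 of the 90 members with 77 starts. The motif CCGGAAG, or its reverse complement CTTCCGG, was in 35.1% of the members' promoters and 8.86% of all 32851 promoters. The motif AAGATGGC, or GCCATCTT, was in 10.4 and 2.75%, and TATAAA, or TTTATA, in 10.4 and 13.6%. Both strands were searched, and since CCGGAAG ends and AAGATGGC begins with the same 3 letters, matches of these can overlap. A run of at least 8 pyrimidines within 10 bases of the start was in 40.3% of the members' promoters and 13.7% of all. Windows of 50 bases before and 25 bases from the start are shown for Rpl28 (chr7:4792915-4792989, plus strand) and Rps12 (chr10:23787185-23787259, minus strand), because both carry a run of 11 pyrimidines, in capitals, while Rpl28 was higher and Rps12 lower in OVA melanoma cells.
Rpl28: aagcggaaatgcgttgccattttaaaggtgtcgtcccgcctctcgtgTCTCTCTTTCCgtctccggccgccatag
Rps12: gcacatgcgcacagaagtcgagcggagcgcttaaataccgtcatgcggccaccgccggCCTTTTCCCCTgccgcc
A match is a description of the letters only.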

How the data were processed

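The deposited table holds raw counts of reads per Ensembl gene in 12 libraries, with no normalization by the authors. Per the submitters' processing notes, HISAT2 2.0.5, featureCounts 1.6.0 and build GRCm39 were used, and per the labels' protocols libraries were made with the NEBNext Ultra kit after poly-A selection. The strand option, the treatment of multi-mapping reads and the release of the annotation are not given in the sources used here. All 12 count columns were used (0 others).

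Members were found by symbol. CPM divides a count by its library total. Tests used edgeR 4.0.16 (R 4.3.3) on all genes that passed filterByExpr by group, with TMM scaling, quasi-likelihood F tests, Benjamini-Hochberg adjustment over all genes tested and a threshold of 0.05, and glmTreat against 1.5-fold. Comparisons of 2 groups were fitted on their 6 libraries and the difference of OVA effects on all 12. A further fit took the summed member counts as library size. SE values derive from the F statistic. Intervals and floors (3 counts) cover counting error only.

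Lengths, chromosomes and transcripts came from GENCODE M21 (GRCm38), which matched all 90 members, and no coordinates are given on the files' build. Of tested genes, 91.3 to 92.9% matched a chromosome. Copies were compared with members without gaps.

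The members, gene lists, named-gene rule and tests were chosen with earlier results of these data known. The copy search, the chromosome pattern, and Rpl21, Rpl35a, Rps27rt and Gm15500 were chosen after their values were seen. The rule named, per comparison, the 5 highest and 5 lowest members whose libraries did not overlap and whose higher group averaged 5 CPM or more, 4 and 4 for the difference of OVA effects, plus a fixed set (stalk proteins, Rpsa, Rps6, Rps3, Rpl3, Rpl5, Rpl11, Rpl10, paralog pairs and the highest per kilobase). The text uses a selection, and some genes that the rule named are not reported here.

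Replicates differed by more than counting noise (chi-square per degree of freedom 1.51 to 1.77 over 12 pairs), so none were merged. The fits were tested on simulated data: in OVA against B16-F10 melanoma cells, 91.8% of 97 genes changed 2-fold and 100% of 95 changed 4-fold were called among 16920, with 12 false calls. Scaling to the member sum gave 51 false calls there and 0 under glmTreat, and for the difference of OVA effects 83.7% of 98 genes changed 2-fold and 90.5% of 95 changed 4-fold were called among 17755, with 9 false calls. In the measured OVA and B16-F10 melanoma libraries, 42% of the 17418 genes tested were called higher and 37.4% lower. Recovery with so large a share of genes changed was not tested, nor was the choice of scaling in that case. Alternatives were DESeq2 1.42.0, other scalings and filters, each library left out, a replicate block and copy rows added to their members.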

Additional observations from a re-analysis of the deposited data

Results flagged for a closer look

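By the test of the difference itself (edgeR, all 12 libraries, adjusted over all genes), the OVA effect differed in 73 of 84 members. Of all 18562 genes tested, 27.7% had a positive and 41.3% a negative difference by the same test. Listed here are 5 of the 73 members, as T cells minus melanoma cells. On chromosome 7 all 14 core members, Rps19 among them, had a negative difference (median -0.59). The 1302 other genes tested there had a median of -0.55, the lowest of 20 chromosomes, with 58.8% called negative and 9.37% positive. Rps19 had a log2 difference of -0.76 and was higher in OVA than in B16-F10 melanoma cells and lower in OVA than in B16-F10 T cells. Rpl3 had 0.92, which was 0.23 with its copy rows added. Rps12 had 0.81, Rps27l 0.76 and Rpl36a 0.73, each lower in OVA than in B16-F10 melanoma cells. Melanoma, endothelial and fibroblast marker sums differed between OVA and B16-F10 melanoma cells in the same comparisons, and their part was not tested.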

How the results depend on the processing

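With library totals alone, 1 member was called higher in OVA over B16-F10 T cells, 21 were higher in OVA over B16-F10 melanoma cells, 5 were 1.5-fold higher and 14 lower in T cells over melanoma cells of B16-F10 tumors, and 5 were 1.5-fold lower in those of OVA tumors. In OVA over B16-F10 melanoma cells, Rplp0 (-0.0427), Rpsa (-0.050) and Rps6 (-0.13) then turned to lower. Scaled to melanoma markers, 84 members were called higher and 0 lower there, with 71 and 0 past 1.5-fold, and the log2 fold changes turned positive for Rpl3 (0.22), Rpl36a (0.25), Rps7 (0.33), Rps12 (0.33), Rpl30 (0.35), Rps27l (0.41), Rpl5 (0.58), Rpl36al (0.82), Rplp1 (0.86) and Rpl11 (0.96). DESeq2 left 4 members 1.5-fold lower in OVA melanoma cells and 5 in T cells over melanoma cells of B16-F10 tumors. With TMM on the members alone, 3 were lower within the member sum in OVA melanoma cells. The cause of these changes was not tested.

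Adding the named pseudogene rows left 5 members 1.5-fold lower in T cells over melanoma cells of B16-F10 tumors and 1 in those of OVA tumors. Adding all close copies, an alternative chosen after seeing the data, left 2 and 1, with 3 lower in OVA melanoma cells, 2 lower there within the member sum and 3 higher in the difference of OVA effects. Under both in turn, Rpl3 turned to -0.0436 and -0.0439 in OVA over B16-F10 T cells, Rps18 to 0.51 in T cells over melanoma cells of B16-F10 tumors and Rps6 to -0.0503 and -0.0505 in OVA over B16-F10 melanoma cells, and under the second Rpl5 turned to 0.14 in T cells over melanoma cells of B16-F10 tumors. The summed share in OVA T cells, B16-F10 T cells, OVA melanoma cells and B16-F10 melanoma cells was 2.95, 3.28, 3.00 and 3.46% with named pseudogenes, 3.06, 3.40, 3.10 and 3.54% with close copies, and 2.77, 3.12, 3.01 and 3.35% without mitochondrial genes and Rn18s-rs5.

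Leaving out each library in turn gave 2 to 5 members higher and 53 to 59 lower in OVA over B16-F10 T cells (5 higher without OVA T cell replicate 1), and 32 to 34 higher and 45 to 47 lower in OVA over B16-F10 melanoma cells. Of the other values of named members, 505 kept direction and side of the threshold over the alternatives, 20 reversed, 6 lost and 5 gained a call. The replicate numbers gave no sign of pairing: the correlations of same-numbered libraries ran from -0.03 to 0.06. Such values cannot show whether same-numbered libraries came from the same tumor. With the replicate number as a block, 63 members were called in OVA over B16-F10 T cells (63 without), 80 in OVA over B16-F10 melanoma cells (79), 81 in T cells over melanoma cells of B16-F10 tumors (81), 73 in those of OVA tumors (72) and 74 in the difference (73). Depth limits the 6 untested members and Rpl39l and Rpl3l, whose counts are low.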
